A study of Rattus norvegicus with 19 samples.

Results

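The genes of membrane traffic between the endoplasmic reticulum (ER) and the Golgi apparatus were described as a set of 56 named genes: the COPI and COPII vesicle coats, the p24 cargo receptors, other cargo and retrieval receptors, SNAREs, small GTPases, tethers, and proteins that shape the ER. A probe set was taken as a measurement of a member when its annotation named that gene and no other. By this rule 54 of the 13810 genes annotated on the arrays were members, 52 of them on the first of 2 array types (67 probe sets) and 20 on the second (23 probe sets). Sec23a and Sec24a were not analysed here. The names were drawn up with earlier results of the same comparison of treated and control livers known, so the counts and p-values for these genes describe them and are no independent evidence of a direction.

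The samples were livers of adult Rattus norvegicus, with no strain, sex or age beyond adult in the labels. All animals were fasted overnight, injected once into the peritoneal cavity and killed 8 h later. The treated group received 100 mg/kg of PCN (pregnenolone carbonitrile, a synthetic steroid known as an agonist of the rodent pregnane X receptor), and the control group received corn oil, the vehicle. Total liver RNA of 5 biological replicates per group was labelled with biotin and hybridised to 2 Affymetrix array types. The first type had 5 PCN and 5 corn oil arrays, and the second had 5 PCN and 4 corn oil arrays, with corn oil replicate 2 not analysed there. The study asked whether PCN turns on genes outside drug metabolism. The array types carry different probe sets on different scales and share animals, so each was tested alone and neither repeats the other with new animals. In whole tissue a change of cell numbers and a change of RNA per cell cannot be told apart.

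Newly made secretory and membrane proteins leave the ER in vesicles coated with COPII, which the GTPase Sar1 starts and the Sec23, Sec24, Sec13 and Sec31 proteins build. COPI coats, recruited by Arf GTPases, carry escaped ER proteins and receptors back, while p24 proteins, lectins and KDEL receptors select the cargo in both directions. Tethers and SNAREs then dock and fuse the vesicles, and the hepatocyte relies on this route for albumin, lipoproteins and clotting factors.

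Most of the measured genes read higher after PCN, and few reached the threshold one by one. On the first array type 51 members were bright enough to be tested, each by its brightest probe set, and 9 of them (17.6%) were higher after PCN at an adjusted p under 0.05 in limma's moderated test with Benjamini-Hochberg adjustment over all probe sets. Of all 8073 genes tested there, 2.3% were called higher and 0.979% lower. The 9 were Mal2, Sec23b, Tmed9, Atl2, Trappc3, Arf4, Copa, Mia3 and Arcn1. None of the 51 was called lower in limma, and at an unadjusted p under 0.05 the members numbered 29, all of them higher. The median log2 fold change of the members was 0.30, with 47 of 51 above 0, against a median of -0.0019 and 49.6% above 0 for all genes tested. The count of 9 was 2 without corn oil replicate 4, 3 without PCN replicates 1 or 4, 4 without replicate 3 of either group, and 5 without corn oil replicates 1 or 5 or PCN replicate 5. It was 6 with each array shifted to a common median and 6 with no brightness filter, where Tmed9, Sec23b and Arcn1 were lost. Calls higher over all tested probe sets also fell, from 256 to 107 without corn oil replicate 4. They were 122 to 238 without the other arrays named here, 220 with the common median and 209 with no filter.

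On the second array type 19 members were tested and 8 of them (42.1%) were called higher in limma, where 5.33% of the 4688 genes tested were called higher and 1.19% lower. These were Tmed9, Mal2, Atl2, Mia3, Stx5, Sec22b, Rab2a and Arcn1. Mal2 passed the brightness filter through its PCN arrays alone, and without it 7 of 18 were called. None was called lower in limma, and 17 of the 19 had an unadjusted p under 0.05, all higher. The members' median log2 fold change was 0.42, with 18 of 19 above 0. The count of 8 was 3 without corn oil replicate 4, 4 without replicate 1 of either group and 5 without PCN replicate 3, and 4 to 5 where arrays were rescaled by brightness (quantile normalisation, cyclic loess or brightness-matched centring). Calls higher over all tested probe sets of this type fell too, from 402 to 69 without corn oil replicate 4. They were 134 to 160 without the other arrays named here and 275 to 322 with those rescalings. Taking both array types, 53 members were tested and 12 were called on at least 1 of them. Every PCN array lay above every corn oil array for 10 members on the first type and 12 on the second (11 without Mal2), as for 3.98% and 7.34% of all genes tested, and no member had every PCN array below on either type, where 2.13% and 3.82% of all genes did. A further 2 genes were filtered out as dim, Kdelr3 on the first type and Sec24b on the second.

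**Figure D1:**
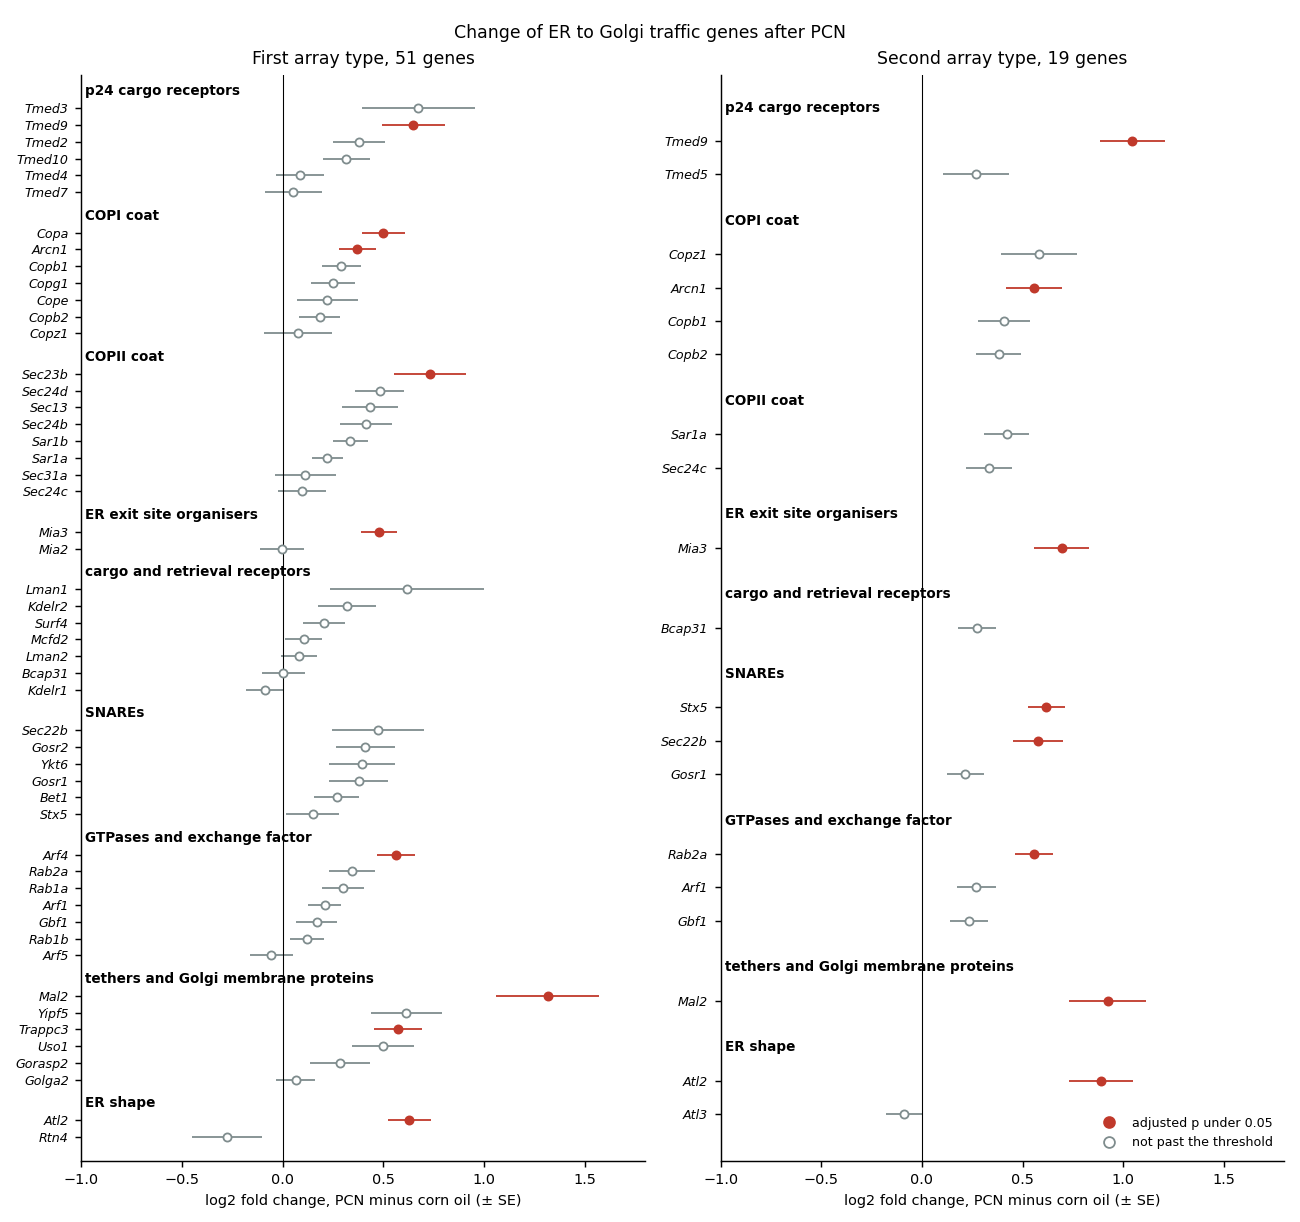
Log2 fold change (PCN minus corn oil, ± SE from limma) of each tested member, grouped by role, on the first array type (left, 51 genes) and the second (right, 19 genes). Filled points have an adjusted p under 0.05. Nearly all points lie to the right of 0, and the exceptions on the first type are Rtn4, Kdelr1, Arf5 and Mia2, each with its point at or left of 0, with Atl3 left of 0 on the second.

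The members were bright probe sets, and brightness mattered on the second array type. There 14 of the 19 members lay in the brightest decile of the tested probe sets. Other genes of that decile had a median log2 fold change of 0.21 with 81.5% above 0 and 15.3% called higher, so higher readings after PCN were common among the bright probe sets of those arrays. Every PCN array lay above every corn oil array for 20.2% of them, against 7.59% in the brightest decile of the first type. After subtraction of the median of other genes of equal brightness, the members' median was 0.24 on the second type. On the first type the brightest decile of other genes had a median of -0.013, with 4.56% called higher, and the members' median after the same subtraction was 0.29. The 100 probe sets that both array types carry in common averaged 0.08 on the first type and 0.28 on the second, a difference between the tables whose source was not tested.

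**Figure D2:**
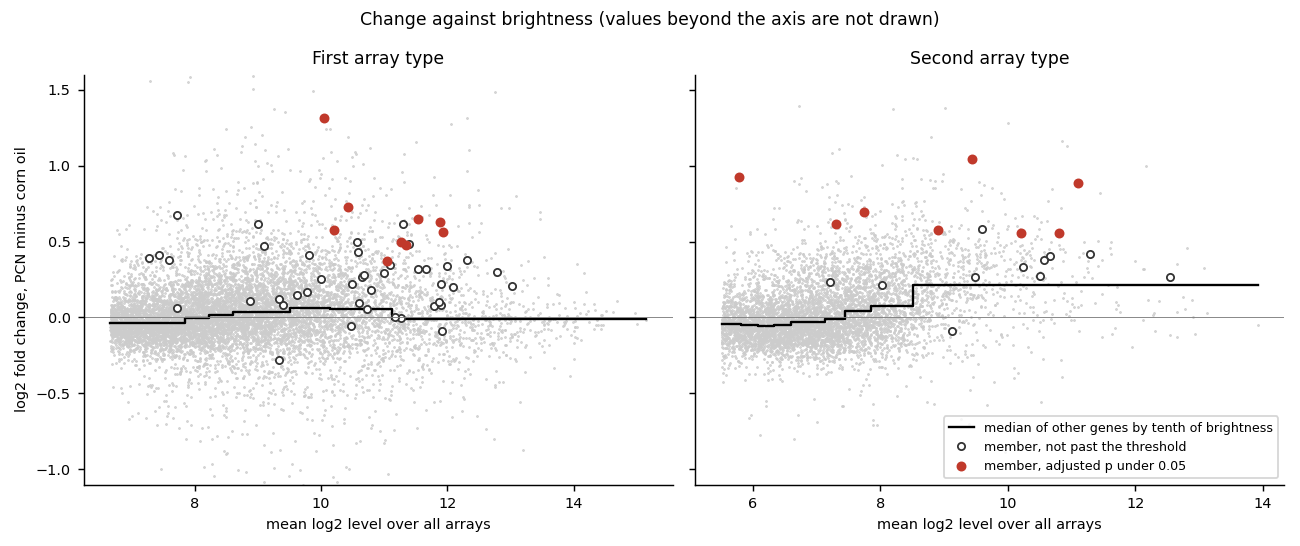
Log2 fold change (PCN minus corn oil) against the mean log2 level over all arrays for every tested probe set annotated to 1 gene (grey), for members (circles, filled where the adjusted p is under 0.05), and the median of other genes in each decile of brightness (line). The line stays near 0 on the first array type and rises to 0.21 in the brightest decile on the second.

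The shift was not equal in all arrays. For each member the deviation from its own mean over the arrays was taken, and on the first array type the median deviation in corn oil replicates 1 to 5 was -0.02, -0.17, -0.10, -0.21 and -0.17. In PCN replicates 1 to 5 it was 0.15, -0.11, 0.18, 0.37 and 0.15. PCN replicate 2 thus lay with the corn oil arrays, with 12 of 51 members above their own mean, while in PCN replicate 4 all 51 were above it. On the second array type the medians were -0.33, -0.16, -0.26 and -0.13 in corn oil replicates 1, 3, 4 and 5, and 0.22, 0.20, 0.19, 0.29 and 0.02 in PCN replicates 1 to 5. There PCN replicate 5 was the lowest of its group and PCN replicate 2 was not apart. The array types measure the members by mostly different probe sets, and whether the low reading follows the animal was not tested. Without PCN replicate 2 the members called higher on the first type numbered 13, and without PCN replicate 5 those on the second numbered 11. Calls higher over all tested probe sets rose as well, from 256 to 343 on the first type and from 402 to 907 on the second.

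**Figure D3:**
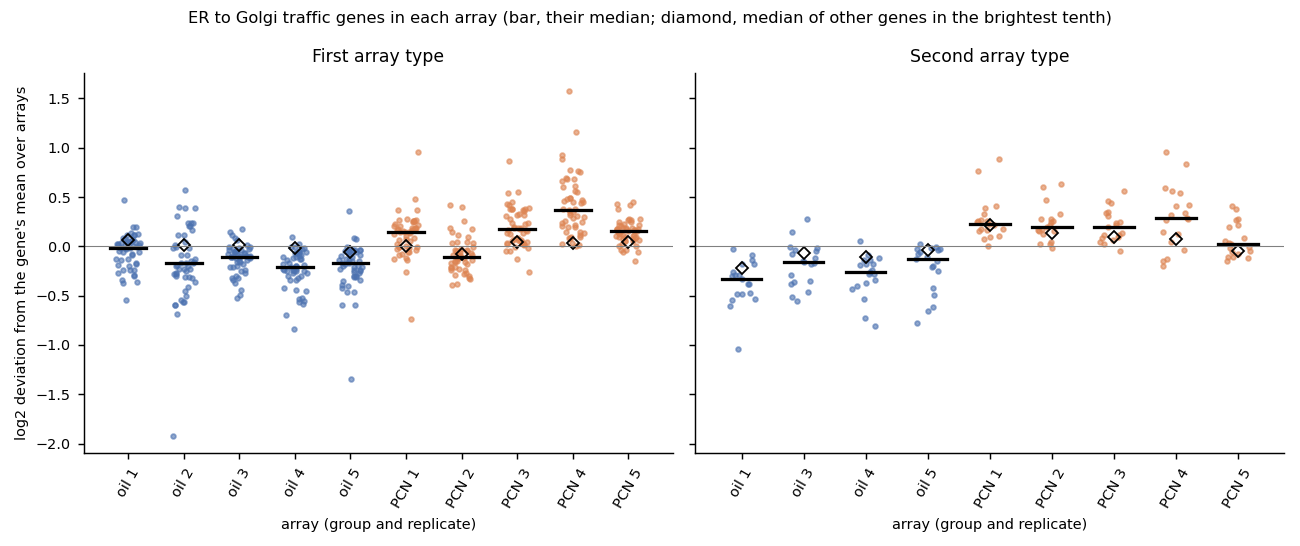
Log2 deviation of each tested member (points) from its own mean over the arrays of its type, for each array, with the members' median (bar) and the median of other genes in the brightest decile (diamond). The corn oil medians lie below 0 on both array types, and the PCN medians lie above 0 except for PCN replicate 2 on the first type.

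Corn oil replicate 2 on the first type of array stood apart in its control probe sets. The log2 level of the 3' actin control probe set exceeded that of the 5' one by 2.28 on this array and by 0.407 to 0.564 on the other arrays of the type, and the same difference for Gapdh was 2.02 against 0.562 to 0.855. Its median correlation with the rest of its group was 0.956, where the other arrays had 0.978 to 0.984. A reading over 1 log2 unit below all the other arrays was found for 4 of 64 member probe sets (6.25%), against 188 of 11106 (1.69%) overall. These belonged to Tmed2, Mia2, Lman1 and Arf1. Without this array 8 members were called higher and 0 lower in limma on the first type, and their median log2 fold change was 0.25 with 48 of 51 above 0.

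The region around the transcription start was searched for the DNA motifs of the ER stress response, since genes of the secretory pathway are known targets of its transcription factors. RefSeq promoters of the rat assembly GRCr8, from 250 bases before to 50 after the start, were matched for 46 of the 56 members (47 promoters, as Mia2 has 2). Sar1a, Sec24c, Sec24d, Surf4, Kdelr2, Rab1b, Rab2a, Gorasp2, Mal2 and Rtn4 were not matched. Both strands were searched for TGACGTG, the core of the unfolded protein response element, and for the longer ER stress elements ERSE and ERSE-II. The core was present in 11 of 47 member promoters (23.4%) and in 605 of all 33469 (1.81%). The members' promoters were also richer in G and C (median 61.7% against 51.7%). Within their middle range of 55.2% to 67.7% the core was present in 5 of 23 promoters of members, tested or not (21.7%). Among promoters of other tested genes in that range it was present in 110 of 4790 (2.30%). Neither longer element occurred in a member promoter, and 22 (0.0657%) of all promoters held ERSE and 17 (0.0508%) ERSE-II. The core shares its first 6 letters with the cyclic AMP response element, and a match is a string of letters and no shown binding site.

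Sequences are printed 5' to 3' on the strand of the gene, with the core or its reverse complement CACGTCA in capitals. The whole window is shown for Arf4 (chr16:1903186-1903485, plus strand) and Mia3 (chr13:97519570-97519869, minus strand), which were called higher in the liver data and whose closest relatives were not. The relatives Atl2 and Atl3 went the other way, as Atl2 was called without a match and Atl3 had 3 matches and no call. Arf1, a relative of Arf4, held the core as well and was not called.
Arf4: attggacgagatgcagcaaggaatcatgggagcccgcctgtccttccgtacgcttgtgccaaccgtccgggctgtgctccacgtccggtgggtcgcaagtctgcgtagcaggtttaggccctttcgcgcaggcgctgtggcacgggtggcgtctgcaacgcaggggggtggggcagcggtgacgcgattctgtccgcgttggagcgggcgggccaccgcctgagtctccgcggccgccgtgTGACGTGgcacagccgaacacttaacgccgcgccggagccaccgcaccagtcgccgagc
Mia3: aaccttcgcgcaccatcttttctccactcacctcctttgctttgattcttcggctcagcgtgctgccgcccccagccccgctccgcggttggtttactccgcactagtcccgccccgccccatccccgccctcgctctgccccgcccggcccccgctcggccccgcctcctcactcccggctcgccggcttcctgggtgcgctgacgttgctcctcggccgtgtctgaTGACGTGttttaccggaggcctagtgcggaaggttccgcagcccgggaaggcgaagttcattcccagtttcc
For the other 9 genes the stretch around the match is shown: Copa (chr13:87078878-87078917, plus strand), Copb1 (chr1:177872819-177872865, minus), Copb2 (chr8:108040658-108040704, plus), Stx5 (chr1:215066494-215066569, plus, 2 matches), Gbf1 (chr1:254959998-254960044, plus), Arf1 (chr10:44513998-44514044, minus), Atl3 (chr1:214110042-214110104, plus, 3 matches), Kdelr3 (chr7:112959512-112959558, plus) and Sec23a (chr6:82440969-82441015, minus).
Copa: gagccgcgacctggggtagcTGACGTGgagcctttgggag
Copb1: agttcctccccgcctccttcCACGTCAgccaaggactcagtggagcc
Copb2: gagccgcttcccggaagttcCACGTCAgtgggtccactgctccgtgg
Stx5: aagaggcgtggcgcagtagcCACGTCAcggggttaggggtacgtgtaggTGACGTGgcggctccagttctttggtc
Gbf1: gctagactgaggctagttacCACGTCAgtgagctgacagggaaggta
Arf1: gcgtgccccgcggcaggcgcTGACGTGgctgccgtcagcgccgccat
Atl3: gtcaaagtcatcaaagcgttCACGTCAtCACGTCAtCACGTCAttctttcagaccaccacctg
Kdelr3: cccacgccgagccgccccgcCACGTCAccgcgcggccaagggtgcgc
Sec23a: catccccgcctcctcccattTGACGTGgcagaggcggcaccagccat
Of the 9 tested genes with the core, 4 (Arf4, Copa, Mia3 and Stx5) were called higher on an array type, while Copb1, Copb2, Gbf1, Arf1 and Atl3 were not. Of the 34 tested genes with a matched promoter without it, 6 (Atl2, Tmed9, Sec23b, Trappc3, Arcn1 and Sec22b) were called. Of all 53 tested members 12 were called on at least 1 type. A member tested on both types could be called on either, and Stx5 and Sec22b were called on the second alone. The difference between these shares was not tested. In the list of other ER to Golgi genes given further on, 8 of 88 promoters (9.09%) held the core.

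The p24 proteins, which span the membrane and link cargo to both coats, had estimates above 0 in all 6 tested members on the first array type, and 1 of them, Tmed9, was called. Tmed9 read 11.26, 11.65, 11.21, 10.84 and 11.07 in corn oil replicates 1 to 5 and 12.02, 11.64, 11.76, 12.22 and 11.63 in PCN replicates 1 to 5 of the first type (log2 level). Its mean went from 11.21 ± 0.30 (SD, n = 5) to 11.85 ± 0.26 (SD, n = 5), a log2 fold change of 0.65 ± 0.16 (SE) or 1.57-fold, with a limma adjusted p of 0.0459. The groups overlapped by a narrow margin, as corn oil replicate 2 read above 2 PCN arrays, and of the 10 fits that left out an array the call was kept only in those without corn oil replicate 2 or PCN replicate 2 (limma adjusted p up to 0.116). Tmed9 read 9.26, 8.88, 8.63 and 8.67 in corn oil replicates 1, 3, 4 and 5 and 10.20, 10.08, 9.54, 10.003 and 9.71 in PCN replicates 1 to 5 of the second type (log2 level). Tmed9 averaged 8.86 ± 0.29 (SD, n = 4) in corn oil and 9.90 ± 0.27 (SD, n = 5) after PCN, a log2 fold change of 1.04 ± 0.16 (SE) or 2.06-fold, with a limma adjusted p of 0.00695. Here every PCN array lay above every corn oil array, and the call was kept in all 9 fits that left out an array. At the other end, Tmed7 and Tmed4, relatives in the same complexes, had log2 fold changes of 0.05 and 0.08 on the first type. Tmed3 had the highest estimate of the family there, a log2 fold change of 0.67 ± 0.28 (SE; limma adjusted p = 0.237), but PCN replicate 4 read 9.30 where the other PCN arrays read 7.43 to 7.92, and without it the estimate for Tmed3 was 0.36. Tmed2 and Tmed10 had estimates of 0.38 and 0.32 that did not reach the threshold. Tmed5, measured on the second type alone, had a log2 fold change of 0.27 ± 0.17 (SE; limma adjusted p = 0.308).

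The COPI coat, which returns escaped proteins from the Golgi to the ER, had all 7 subunits above 0 on the first array type and 2 of them called. Copa read 11.25, 11.02, 10.97, 10.85 and 11.004 in corn oil replicates 1 to 5 and 11.47, 11.44, 11.33, 11.83 and 11.53 in PCN replicates 1 to 5 of the first type (log2 level). The means were 11.02 ± 0.15 (SD, n = 5) in corn oil and 11.52 ± 0.19 (SD, n = 5) after PCN, a log2 fold change of 0.50 ± 0.11 (SE) or 1.41-fold, with a limma adjusted p of 0.0298. Copa encodes the alpha subunit of the outer layer, and all its PCN arrays lay above all its corn oil arrays. Arcn1 read 10.92, 10.88, 10.88, 10.80 and 10.82 in corn oil replicates 1 to 5 and 11.19, 10.99, 11.36, 11.39 and 11.22 in PCN replicates 1 to 5 of the first type (log2 level). Its mean went from 10.86 ± 0.05 (SD, n = 5) to 11.23 ± 0.16 (SD, n = 5), a log2 fold change of 0.37 ± 0.09 (SE) or 1.29-fold, with a limma adjusted p of 0.0481. Arcn1 encodes the delta subunit of the inner layer, and its corn oil arrays lay within a narrow span below every PCN array. Of the 10 fits that left out an array, the Arcn1 call was kept only in that without PCN replicate 2 (limma adjusted p up to 0.119), and that of Copa was lost without corn oil replicates 3, 4 or 5 or PCN replicates 1, 4 or 5 (up to 0.0849). Arcn1 read 9.67, 9.69, 10.02 and 10.20 in corn oil replicates 1, 3, 4 and 5 and 10.53, 10.40, 10.39, 10.74 and 10.19 in PCN replicates 1 to 5 of the second type (log2 level). Arcn1 averaged 9.89 ± 0.26 (SD, n = 4) in corn oil and 10.45 ± 0.20 (SD, n = 5) after PCN, a log2 fold change of 0.56 ± 0.14 (SE) or 1.47-fold, with a limma adjusted p of 0.0411. On this type the lowest PCN array, replicate 5, fell just below the highest corn oil array, also replicate 5, and the call was lost without corn oil replicates 1, 3 or 4 or PCN replicates 1, 2, 3 or 4 (limma adjusted p up to 0.119). It was also lost after quantile normalisation, cyclic loess and brightness-matched centring (up to 0.156).

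On the first type the estimates of the remaining COPI subunits ran from 0.08 for Copz1 to 0.29 for Copb1, and none passed. Copg1 had 0.25 ± 0.11 (SE) by its brighter probe set and 0.57 ± 0.19 by its dimmer one, which was not called either. Copb1 (beta subunit) had groups that did not overlap on either type, with PCN from 10.99 to 11.32 above corn oil from 10.69 to 10.96 on the first type, and an adjusted p of 0.129 in limma. On the second type the same probe set had a log2 fold change of 0.41 and Copb2 one of 0.38. Copz1 had 0.08 ± 0.17 (SE) on the first type and 0.58 ± 0.19 by another probe set on the second, where the PCN arrays all lay above the corn oil arrays and the limma adjusted p was 0.0853. On the first type corn oil replicate 2, the array that stood apart, read 12.35 where the other corn oil arrays read 11.45 to 11.76. Without it the Copz1 estimate was 0.23. On the second type 0.37 remained after the median of other genes of its brightness was subtracted. The source of the difference was not tested.

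The COPII coat, which buds vesicles from the ER, had all 8 tested genes above 0 on the first array type, with a median log2 fold change of 0.37, and 1 call. Sec23b read 10.19, 10.14, 10.18, 9.85 and 9.96 in corn oil replicates 1 to 5 and 10.68, 10.16, 10.97, 11.31 and 10.85 in PCN replicates 1 to 5 of the first type (log2 level). The means were 10.06 ± 0.15 (SD, n = 5) in corn oil and 10.79 ± 0.42 (SD, n = 5) after PCN, a log2 fold change of 0.73 ± 0.18 (SE) or 1.66-fold, with a limma adjusted p of 0.0477. Sec23b stimulates GTP hydrolysis by Sar1, and 4 of its PCN arrays stood clear of the corn oil arrays, while PCN replicate 2 lay among them. The call was kept without PCN replicate 2 and lost without any other single array (limma adjusted p up to 0.121). The Sec24 proteins, which bind the cargo, had unequal estimates. Sec24d read 11.34, 10.89, 11.29, 11.16 and 11.10 in corn oil replicates 1 to 5 and 11.55, 11.31, 11.78, 11.71 and 11.85 in PCN replicates 1 to 5 of the first type (log2 level). Its mean went from 11.16 ± 0.18 (SD, n = 5) to 11.64 ± 0.22 (SD, n = 5), a log2 fold change of 0.48 ± 0.12 (SE) or 1.40-fold, with a limma adjusted p of 0.0517. Sec24d therefore fell just short of the threshold, and corn oil replicate 1 overlapped the lowest PCN array. Sec24c, by contrast, had 0.10 ± 0.12 (SE) on the first type and 0.33 ± 0.11 on the second, and Sec24b had 0.41 ± 0.13 on the first.

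The GTPases that start the COPII coat, Sar1a and Sar1b, had estimates of 0.22 ± 0.08 and 0.34 ± 0.09 (SE) on the first type, with PCN arrays above every corn oil array in both. The limma adjusted p was 0.145 for Sar1a and 0.0588 for Sar1b. A dimmer probe set of Sar1a was called, with a log2 fold change of 0.46 ± 0.10 (SE) and an adjusted p of 0.0347 in limma, and on the second type Sar1a had 0.42 ± 0.11 with an adjusted p of 0.0506. In the outer coat Sec13 had 0.43 ± 0.14, and Sec31a had 0.11 ± 0.15 by its brighter probe set and -0.16 ± 0.11 by its dimmer one.

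At ER exit sites Mia3 (TANGO1), which couples bulky cargo such as collagen and large lipoproteins to the COPII coat, was called on both array types. Mia3 read 10.96, 11.19, 11.20, 10.99 and 11.14 in corn oil replicates 1 to 5 and 11.44, 11.76, 11.65, 11.48 and 11.55 in PCN replicates 1 to 5 of the first type (log2 level). Mia3 averaged 11.10 ± 0.11 (SD, n = 5) in corn oil and 11.58 ± 0.13 (SD, n = 5) after PCN, a log2 fold change of 0.48 ± 0.09 (SE) or 1.39-fold, with a limma adjusted p of 0.0157. The PCN arrays all stood above the corn oil arrays, and PCN replicate 2, low for most members, was the highest. Mia3 read 7.37, 7.56, 7.02 and 7.49 in corn oil replicates 1, 3, 4 and 5 and 8.13, 8.35, 7.96, 7.70 and 8.12 in PCN replicates 1 to 5 of the second type (log2 level). The means were 7.36 ± 0.24 (SD, n = 4) in corn oil and 8.05 ± 0.24 (SD, n = 5) after PCN, a log2 fold change of 0.69 ± 0.14 (SE) or 1.62-fold, with a limma adjusted p of 0.02004. The groups again did not overlap. The call on the first type was lost only without corn oil replicate 4 (limma adjusted p = 0.0512), and that on the second was lost without corn oil replicates 1 or 4 or PCN replicate 1 (up to 0.0656). Its relative Mia2, which acts in the same complex, had a log2 fold change of -0.003 ± 0.11 (SE) on the first type by its brighter probe set, with both groups spanning about the same levels.

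The cargo and retrieval receptors were the role group with the lowest median on the first array type, 0.10, and 0 of its 7 tested members were called by limma. Only Kdelr2 among them had an unadjusted p under 0.05. Lman1 (the lectin that carries clotting factors) had a log2 fold change of 0.62 ± 0.38 (SE; limma adjusted p = 0.444), but corn oil replicate 2, the array that stood apart, read 7.07 where the others read 8.83 to 9.47. Without it the estimate for Lman1 was 0.21, with an adjusted p of 0.595 in limma. Its partner Mcfd2 had 0.10 ± 0.09 (SE), and the related lectin Lman2 had 0.08 ± 0.09. Of the KDEL receptors, which retrieve resident ER proteins, Kdelr2 had 0.32 ± 0.15 and Kdelr1 -0.09 ± 0.09. Surf4, a receptor for secreted proteins, had 0.20 ± 0.10. Bcap31, a chaperone for membrane proteins leaving the ER, had 0.003 ± 0.11 on the first type and 0.27 ± 0.09 on the second by the same probe set. On the second type its PCN arrays (10.55 to 10.75) lay above its corn oil arrays (10.17 to 10.43), but 0.06 remained of its estimate after the median of other genes of its brightness was subtracted.

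The SNAREs, which fuse vesicles with the Golgi, were all above 0 on both array types, with 0 of 6 called on the first by limma and 2 of 3 on the second. Stx5 read 6.77, 7.15, 7.13 and 6.82 in corn oil replicates 1, 3, 4 and 5 and 7.58, 7.53, 7.66, 7.65 and 7.51 in PCN replicates 1 to 5 of the second type (log2 level). Its mean went from 6.97 ± 0.20 (SD, n = 4) to 7.58 ± 0.07 (SD, n = 5), a log2 fold change of 0.62 ± 0.09 (SE) or 1.53-fold, with a limma adjusted p of 0.00580. Stx5, the Golgi syntaxin at the centre of these fusion complexes, had its groups well apart, and this call was kept in all 12 other settings and all 9 fits without 1 array. On the first type another probe set of Stx5 had a log2 fold change of 0.15 ± 0.13 (SE; limma adjusted p = 0.602), with overlapping groups. The probe set of the second type carries the suffix that Affymetrix gives to probe sets shared by several transcripts. Sec22b read 8.61, 8.62, 8.63 and 8.49 in corn oil replicates 1, 3, 4 and 5 and 9.32, 9.04, 9.15, 9.50 and 8.83 in PCN replicates 1 to 5 of the second type (log2 level). Sec22b averaged 8.59 ± 0.07 (SD, n = 4) in corn oil and 9.17 ± 0.26 (SD, n = 5) after PCN, a log2 fold change of 0.58 ± 0.12 (SE) or 1.49-fold, with a limma adjusted p of 0.0270. Sec22b, the SNARE on the vesicle itself, had corn oil arrays within a narrow span, all below the PCN arrays. Its estimate on the first type was 0.47 ± 0.23 (SE), with overlapping groups. The call of Sec22b on the second type was lost after quantile normalisation, cyclic loess and brightness-matched centring (limma adjusted p up to 0.0800), and without corn oil replicates 1, 3, 4 or 5 or PCN replicates 1 or 3 (up to 0.0735). Gosr2, Ykt6, Gosr1 and Bet1 had estimates from 0.27 to 0.41 on the first type, none of them called.

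Among the GTPases Arf4, which acts on the Golgi and in COPI recruitment, was called on the first array type. Arf4 read 11.64, 11.62, 11.76, 11.49 and 11.72 in corn oil replicates 1 to 5 and 12.16, 11.97, 12.36, 12.38 and 12.18 in PCN replicates 1 to 5 of the first type (log2 level). The means were 11.65 ± 0.11 (SD, n = 5) in corn oil and 12.21 ± 0.17 (SD, n = 5) after PCN, a log2 fold change of 0.56 ± 0.09 (SE) or 1.48-fold, with a limma adjusted p of 0.00820. Every PCN array lay above every corn oil array, and the call was kept in all 12 other settings and all 10 fits that left out an array. Arf1, the main recruiter of COPI, had a log2 fold change of 0.21 ± 0.08 (SE; limma adjusted p = 0.205), and 0.27 ± 0.10 on the second type, with PCN arrays (12.56 to 12.83) above corn oil arrays (12.28 to 12.46). On the second type 0.06 remained of the Arf1 estimate after the median of other genes of its brightness was subtracted. After cyclic loess it read -0.12 there. Arf5 had -0.06 ± 0.11 (SE). Gbf1, the factor that loads these Arf proteins with GTP, had 0.17 ± 0.10 on the first type and 0.23 ± 0.09 on the second.

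The Rab proteins recruit tethers to the membranes between ER and Golgi. Rab2a read 10.52, 10.46, 10.40 and 10.61 in corn oil replicates 1, 3, 4 and 5 and 11.02, 11.08, 10.92, 11.22 and 11.02 in PCN replicates 1 to 5 of the second type (log2 level). Its mean went from 10.49 ± 0.09 (SD, n = 4) to 11.05 ± 0.11 (SD, n = 5), a log2 fold change of 0.56 ± 0.09 (SE) or 1.47-fold, with a limma adjusted p of 0.0111. All PCN arrays of Rab2a stood above the corn oil arrays. This call was lost after quantile normalisation, cyclic loess (limma adjusted p = 0.138) and brightness-matched centring, and without corn oil replicate 4 (0.0537). On the first type Rab2a had 0.35 ± 0.11 (SE), Rab1a 0.30 ± 0.10 and Rab1b 0.12 ± 0.09, none of them called.

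The tethers and Golgi membrane proteins had the highest median of the role groups on the first type, 0.54, with all 6 members above 0 and 2 called. Mal2 read 10.03, 9.44, 9.54, 9.20 and 8.69 in corn oil replicates 1 to 5 and 10.99, 10.13, 10.90, 11.20 and 10.27 in PCN replicates 1 to 5 of the first type (log2 level). Mal2 averaged 9.38 ± 0.49 (SD, n = 5) in corn oil and 10.70 ± 0.47 (SD, n = 5) after PCN, a log2 fold change of 1.32 ± 0.26 (SE) or 2.49-fold, with a limma adjusted p of 0.0189. Mal2, a membrane protein known for the transport of proteins to the bile canalicular face of hepatocytes, had the largest rise of all members, and the lowest PCN array exceeded the highest corn oil array by a small margin. The call was lost without corn oil replicate 4 or PCN replicates 1, 3 or 4 (limma adjusted p up to 0.0562). Mal2 read 5.31, 5.40, 5.25 and 5.13 in corn oil replicates 1, 3, 4 and 5 and 6.67, 5.76, 6.25, 6.62 and 5.67 in PCN replicates 1 to 5 of the second type (log2 level). The means were 5.27 ± 0.11 (SD, n = 4) in corn oil and 6.19 ± 0.47 (SD, n = 5) after PCN. On this type the corn oil mean lay below the floor for tested probe sets (5.51), so Mal2 was tested there through its PCN arrays alone, and its difference of 0.92 ± 0.19 (SE) is given as a description.

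Trappc3, a core subunit of the TRAPP tethering complex, was the other call in this group. Trappc3 read 9.85, 9.94, 9.84, 9.89 and 10.10 in corn oil replicates 1 to 5 and 10.47, 10.24, 10.66, 10.81 and 10.29 in PCN replicates 1 to 5 of the first type (log2 level). The means were 9.92 ± 0.11 (SD, n = 5) in corn oil and 10.50 ± 0.24 (SD, n = 5) after PCN, a log2 fold change of 0.57 ± 0.12 (SE) or 1.49-fold, with a limma adjusted p of 0.0266. The groups did not overlap, and the call was lost without corn oil replicates 1, 3 or 4 or PCN replicates 1, 3 or 4 (limma adjusted p up to 0.0695). Yipf5, a Golgi membrane protein that binds Rab proteins, had a log2 fold change of 0.61 ± 0.18 (SE; limma adjusted p = 0.0827), and Uso1, the tether that Rab1 recruits, had a log2 fold change of 0.50 ± 0.15 (SE; limma adjusted p = 0.110). Both had 1 corn oil array or more within the range of the PCN arrays. Gorasp2, which helps to stack the Golgi, had 0.28 ± 0.15 (SE), and the Golgi matrix protein Golga2 had 0.06 ± 0.10.

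Among the proteins that shape the ER, Atl2 was called on both array types. Atl2 read 11.34, 11.33, 11.77, 11.66 and 11.76 in corn oil replicates 1 to 5 and 12.10, 12.28, 12.27, 12.09 and 12.27 in PCN replicates 1 to 5 of the first type (log2 level). Its mean went from 11.57 ± 0.22 (SD, n = 5) to 12.20 ± 0.10 (SD, n = 5), a log2 fold change of 0.63 ± 0.11 (SE) or 1.55-fold, with a limma adjusted p of 0.00903. Atl2 is an atlastin, a GTPase that fuses ER tubules with each other, and its groups lay far apart. Atl2 read 10.06, 10.64, 10.85 and 10.90 in corn oil replicates 1, 3, 4 and 5 and 11.33, 11.57, 11.66, 11.42 and 11.51 in PCN replicates 1 to 5 of the second type (log2 level). Atl2 averaged 10.61 ± 0.38 (SD, n = 4) in corn oil and 11.50 ± 0.13 (SD, n = 5) after PCN, a log2 fold change of 0.89 ± 0.16 (SE) or 1.85-fold, with a limma adjusted p of 0.0147. The groups were again separate, although corn oil replicate 1 was lower than the rest. The first call was kept in all 12 other settings and all 10 fits without 1 array, and the second was kept in all 9 such fits and lost with cyclic loess (limma adjusted p = 0.0512). The related Atl3, on the second type alone, had -0.09 ± 0.09 (SE) by its brighter probe set and 0.15 ± 0.13 by its dimmer one. Rtn4, a reticulon that curves ER tubules, had the lowest estimate of all members, a log2 fold change of -0.28 ± 0.17 (SE; limma adjusted p = 0.444). Corn oil arrays of Rtn4 read 9.09 to 9.72 and PCN arrays 8.60 to 9.43, with PCN replicate 1 below all others.

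**Figure D4:**
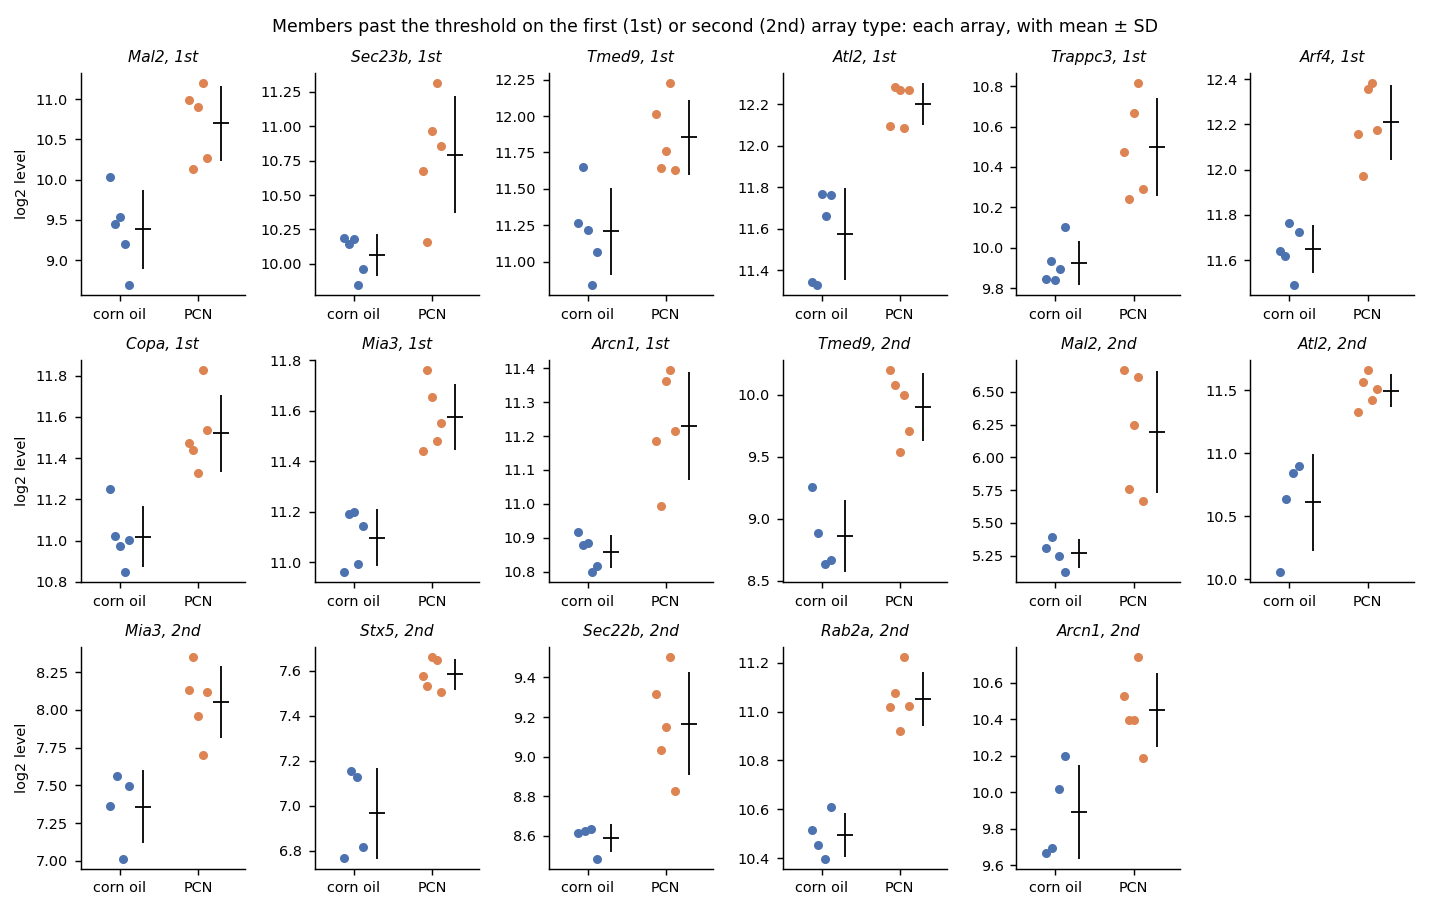
Log2 level in each array, with mean ± SD beside it, of each member called on the first (1st) or second (2nd) array type, corn oil on the left and PCN on the right of each panel, with an axis of its own per panel. The groups overlap for Sec23b and Tmed9 on the first type and for Arcn1 on the second, and are separate in the other panels.

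A comparison of the array types gene by gene covered 17 members tested on both, 6 of them with the same probe set on each. The types share their animals, so values are set side by side with no test. For the 6 shared probe sets the estimates on the first and second type were 0.29 and 0.41 for Copb1, 0.18 and 0.38 for Copb2, 0.22 and 0.42 for Sar1a, 0.10 and 0.33 for Sec24c, 0.003 and 0.27 for Bcap31, and 0.21 and 0.27 for Arf1. None of these 6 was called on either type, and the shift of bright probe sets on the second type, given above, runs in the same direction.

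Close relatives within a family differed in the size of their change. The difference between 2 relatives was taken within each array, where the scaling of one array to another does not enter, and compared between PCN and corn oil by an exact two-sided permutation test over arrays. On the first array type 28 pairs in a family could be compared, and 9 differed at an adjusted p under 0.05 over the 28. The smallest p that 5 against 5 arrays allow is 0.00794, which 5 pairs reached (exact permutation test, adjusted p = 0.0444). The change of Arf4 exceeded that of Arf1 by 0.35 ± 0.10 log2 units (SE) and that of Arf5 by 0.62 ± 0.07. Likewise Mia3 exceeded Mia2 by 0.48 ± 0.14, Tmed9 exceeded Tmed7 by 0.59 ± 0.13, and Sec24d exceeded Sec24c by 0.39 ± 0.08. In each of these 5 pairs all 5 PCN arrays lay beyond all 5 corn oil arrays. The count of 9 was 0 without corn oil replicates 1, 3 or 5 or PCN replicates 1 or 4, 5 without corn oil replicate 4 or PCN replicates 2 or 3, and 9 to 10 without the other 2. The smallest p was 0.00794 in these fits too (exact permutation test). After adjustment over 28 pairs no pair can then pass unless at least 5 do. A fall to 0 therefore does not show that a given pair depends on that array. The relatives were drawn from the same comparison that was known when the genes were named, so these p-values too are descriptions.

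The other 4 pairs reached an exact permutation p of 0.0159 (adjusted p = 0.0494). These were Arf1 over Arf5 by 0.26 ± 0.08 (SE), Tmed2 over Tmed4 by 0.29 ± 0.09, Tmed9 over Tmed10 by 0.33 ± 0.10 and Tmed3 over Tmed7 by 0.62 ± 0.22. Kdelr2 exceeded Kdelr1 by 0.41 ± 0.14, which did not pass (exact permutation, adjusted p = 0.0556). Sar1a and Sar1b differed by 0.11 ± 0.05, with an adjusted p of 0.160 in the exact permutation test. On the second type 2 pairs could be compared. Atl2 exceeded Atl3 by 0.98 ± 0.18 (exact permutation, adjusted p = 0.0159) and Tmed9 exceeded Tmed5 by 0.78 ± 0.30 (adjusted p = 0.0397). Of these, 1 passed without corn oil replicates 3, 4 or 5 and 0 without PCN replicates 1, 2, 4 or 5. With a PCN array left out the smallest exact permutation p is 0.0286. After adjustment over 2 pairs neither pair can then pass unless both do, so these losses do not show dependence on a single array. Since relatives are measured by different probes, these are differences in change and not in level, and probes differ in how far they follow a change.

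**Figure D5:**
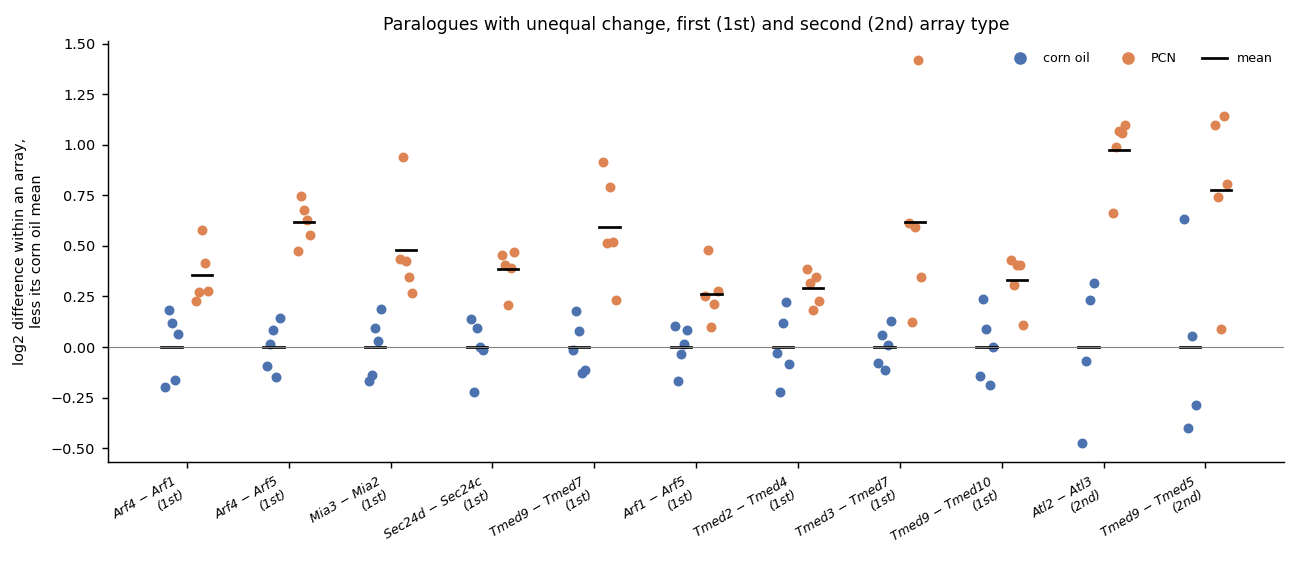
Log2 difference between 2 relatives within an array, less the corn oil mean of that difference, for each pair with an adjusted p under 0.05, corn oil in blue and PCN in orange, with group means as bars. The PCN arrays lie above the corn oil arrays without overlap in Arf4 over Arf1, Arf4 over Arf5, Mia3 over Mia2, Sec24d over Sec24c, Tmed9 over Tmed7 and Atl2 over Atl3, and 1 PCN array overlaps in each of the other 5 pairs.

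Other genes of the same route, listed by their known role, had a median nearer to 0. The members were named with results of this comparison known, so this contrast is a description. The lists also differed in brightness, with 3 of 72 of these genes in the brightest decile on the first type against 21 of 51 members. On the second type it was 5 of 24 against 14 of 19, and other genes of that decile had a median of 0.21 there. On the first array type 72 of 97 such genes were tested, of which 5 were called higher by limma and 0 lower, with a median log2 fold change of 0.09 and 51 above 0. These 5 were Arfgap3 (0.75 ± 0.17 SE), which ends the Arf cycle on COPI vesicles, Preb (0.62 ± 0.12), which loads Sar1 with GTP, Stx18 (0.57 ± 0.12), a SNARE of the ER, Rab6a (0.56 ± 0.12), a Golgi Rab protein, and Golgb1 (0.37 ± 0.09), a Golgi tether. On the second type 24 were tested, with 4 called higher and 0 lower and a median of 0.11. These were Rint1 (0.92 ± 0.16), a tether at the ER, the Golgi tethering subunits Cog3 (0.60 ± 0.10) and Cog5 (0.46 ± 0.08), and the golgin Golga3 (0.42 ± 0.09).

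Genes of the ER stress response were all above 0 on the first type, with 10 tested of 13 listed and a median log2 fold change of 0.39. Of these 10, limma called Dnajb9, an ER chaperone cofactor, which rose by 0.92 ± 0.12 (SE) with an adjusted p of 0.00253. On the second type 3 were tested and 0 called in limma, with a median of 0.12. No tested marker gene of hepatocytes or of 7 other liver and blood cell types was called on an array type, and on the second type no marker of hepatocytes, cholangiocytes, red cells or neutrophils was tested. On the first type the hepatocyte markers, all 7 in the brightest decile, had a median of -0.02, and their mean level ran from 13.61 to 14.07 in corn oil and 13.80 to 14.05 after PCN. The 4 Kupffer cell markers had a median of 0.18 with means of 10.63 to 11.14 in corn oil and 10.81 to 11.37 after PCN. The 7 stellate cell markers had 0.26, with 4 of them above 0, and the 2 red cell markers had -0.49. Endothelial (-0.05), cholangiocyte (-0.01) and lymphocyte markers (-0.11) had medians below 0. The neutrophil marker S100a9 had 0.58, from 6.94 to 7.48 in corn oil and 7.28 to 8.46 after PCN. On the second type the Kupffer cell marker Cd163, in the brightest decile, had 0.40, against a median of 0.21 for other genes of that decile. The 3 endothelial markers there had a median of 0.16, the 3 lymphocyte markers -0.15 and the stellate cell marker Des -0.19. The part of these shifts in the members' values was not tested.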

How the data were processed

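Each deposited table holds log2 values, for 15923 probe sets in the first table and 15333 in the second. MAS5 is named in the submitters' processing notes, and the steps behind the values are not given in the sources used here. The base 2 was inferred from the values, which ran from 4.31 to 15.2 and from 3.10 to 14.1. Array control probe sets (57 per type) and probe sets with a mean under the 30th percentile were left out, leaving 11106 and 10693. Probe sets were named by GEO's platform annotation, with symbols updated through RefSeq. PCN was compared with corn oil in limma 3.58.1 (R 4.3.3) with treatment alone, variances with an intensity trend, two-sided tests and Benjamini-Hochberg adjustment within a type, after the script was tested on simulated data. A gene was read by its brightest tested probe set. The labels call the replicates biological, and their number limits the precision. No 2 arrays were identical. Equally numbered PCN and corn oil arrays did not deviate together (correlations from -0.301 to 0.284 and from 0.020 to 0.201). The members, lists, motifs and tests were chosen with earlier results of these data known. Genes named with values were those called on either type, the highest and lowest of each role group, those with separate groups, pairs past the threshold and genes whose probe sets differ. Alternatives covered scaling, filter, variance model, probe set choice and each array left out.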

Additional observations from a re-analysis of the deposited data

Results flagged for a closer look

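In groups of 4 or 5 arrays, a member's highest or lowest reading was set against the nearest other array of its group by Dixon's criterion. Of 140 such groups 9 held a reading that stood apart, and chance gives about 1 in 20. On the first array type, corn oil replicate 2 gave 3 low readings: Tmed2 at 11.71 (nearest 12.16), Lman1 at 7.07 (nearest 8.83) and Gorasp2 at 10.12 (nearest 10.57). PCN replicate 4 of that type gave 2 high ones, Tmed3 at 9.30 (nearest 7.92) and Copz1 at 12.26 (nearest 11.78). Arf5 read 10.08 in PCN replicate 2 (nearest 10.48) and Rtn4 8.60 in PCN replicate 1 (nearest 9.23), both low. On the second type Bcap31 was low in corn oil replicate 4 (10.17, nearest 10.40) and Sec22b in corn oil replicate 5 (8.49, nearest 8.61). Sec22b was the only called gene on the type concerned.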

How the results depend on the processing

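On the first array type the count of members called higher, 9, was 4 with the replicate block, 19 with array weights, and 6 to 11 under the other settings. The 6 came with each array shifted to a common median and with no filter, which ended the calls of Tmed9, Arcn1 and Sec23b. Leaving out 1 array gave 2 to 13: 2 without corn oil replicate 4, 3 without PCN replicates 1 or 4, 4 without corn oil replicate 3 or PCN replicate 3, and 5 without corn oil replicates 1 or 5 or PCN replicate 5. Over all probe sets the calls higher, 256 in the main fit, ran from 107 to 343 without 1 array and were 768 with array weights. On the second the count of 8 was 5 after quantile normalisation or brightness-matched centring, 4 after cyclic loess, 13 with array weights, 6 with the replicate block and 8 to 10 otherwise. With 1 array left out it ran from 3 (without corn oil replicate 4) to 11, with 4 without corn oil replicate 1 or PCN replicate 1 and 5 without PCN replicate 3. Over all probe sets of the second type the calls higher, 402 in the main fit, ran from 69 to 907 without 1 array. With array weights they were 868. No member was called lower under any setting on either type. The pairing by number, which the arrays did not bear out, ended the calls of Tmed9, Arcn1, Copa, Sec23b and Trappc3 on the first type and of Arcn1 (limma adjusted p = 0.103) and Rab2a (0.0633) on the second. Unequal pairs numbered 9 to 10 under the scalings and 7 in limma with the replicate block on the first type, and 0 to 10 without 1 array. On the second they were 2 under those settings and 0 to 2 without 1 array.

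Signs were compared for the genes named by the rule given above, and they turned only for members that were not called. Tmed7 read -0.014 after quantile normalisation, -0.020 after brightness-matched centring and -0.057 to 0.13 without 1 array. Without 1 array Copz1 ran from -0.034 to 0.23, Arf5 from -0.096 to 0.036 and Mia2 from -0.051 to 0.065, and Mia2 read 0.077 with array weights. Arf1 on the second type read -0.12 after cyclic loess. The members' median stayed between 0.25 and 0.33 on the first type and 0.24 and 0.49 on the second. The cause of these changes was not tested.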
